A study of Mus musculus with 4 samples.

Results

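The genes described here encode the plasma proteins of blood coagulation and of the complement system that the liver makes. They were chosen by name: 20 coagulation genes and 20 complement genes. Of these 40 genes, 36 were measured by probe sets of 1 gene, 18 in each family, among 22180 genes measured in that way. Klkb1 and Masp2 had only a probe set that lists 2 genes, and Cpb2 and C3 were not analysed here. The samples were primary hepatocytes of 2-month-old male mice, either wild type (WT) or labelled Chrebp-KO, for the gene (Mlxipl) of the sugar-responsive transcription factor ChREBP. Hepatocytes of each genotype were kept in medium free of serum for 16 h, in the presence of 25 mM fructose or in its absence (control). The labels give no strain, no number of animals behind a sample and no part of the gene that was deleted, and they call the extracted material liver RNA. Each of the 4 groups was measured on 1 array, so no difference below has a replicate check. The only test that such a design allows takes the difference of the fructose effects as its error, and since that difference is itself described here, no test was made.

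Coagulation is a cascade of serine proteases that circulate as inactive precursors and end in thrombin, which turns fibrinogen into fibrin. Antithrombin and the protein C system restrain it, and plasmin dissolves the clot. Complement is a parallel cascade that is started by antibody through C1, by mannose-binding lectins, or on surfaces through factor B. Its routes converge on C3 and C5 and on the pore-forming terminal components. Hepatocytes are the main source of most of these plasma proteins, and many of their genes belong to the acute phase response.

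Promoter windows of 5 members are shown because their genes differed in their values with fructose: F11, F9, Pros1 and Hc were lower with fructose and Fgb was level. They were chosen after the values were seen. Each window is the 250 bases before the RefSeq start of the gene in GRCm38.p6, read 5' to 3' on the gene's strand. Capitals mark a match to the C/EBP-type letters TTGCNNAA on either strand. The windows lie at chr8:45262032-45262281 (F11, minus strand), chrX:59999214-59999463 (F9, plus strand), chr3:83049864-83050113 (Fgb, minus strand), chr16:62854057-62854306 (Pros1, plus strand) and chr2:35061413-35061662 (Hc, minus strand).
F11: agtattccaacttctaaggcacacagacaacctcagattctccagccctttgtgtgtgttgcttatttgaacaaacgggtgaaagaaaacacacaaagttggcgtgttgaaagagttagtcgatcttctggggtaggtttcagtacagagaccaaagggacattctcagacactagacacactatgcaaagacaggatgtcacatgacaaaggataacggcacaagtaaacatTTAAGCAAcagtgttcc
F9: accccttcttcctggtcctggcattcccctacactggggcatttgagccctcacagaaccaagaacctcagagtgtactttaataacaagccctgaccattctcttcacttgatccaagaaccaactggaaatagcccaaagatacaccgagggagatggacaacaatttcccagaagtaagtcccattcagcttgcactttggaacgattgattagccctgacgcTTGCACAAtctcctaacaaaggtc
Fgb: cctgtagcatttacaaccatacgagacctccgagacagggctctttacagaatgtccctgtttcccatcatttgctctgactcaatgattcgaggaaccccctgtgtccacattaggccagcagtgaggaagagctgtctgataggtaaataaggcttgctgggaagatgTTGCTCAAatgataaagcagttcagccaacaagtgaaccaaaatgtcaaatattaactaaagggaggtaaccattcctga
Pros1: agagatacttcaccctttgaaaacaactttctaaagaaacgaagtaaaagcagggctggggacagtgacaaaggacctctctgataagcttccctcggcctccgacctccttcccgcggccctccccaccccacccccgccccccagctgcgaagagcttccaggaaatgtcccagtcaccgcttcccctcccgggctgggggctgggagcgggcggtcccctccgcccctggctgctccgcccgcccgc
Hc: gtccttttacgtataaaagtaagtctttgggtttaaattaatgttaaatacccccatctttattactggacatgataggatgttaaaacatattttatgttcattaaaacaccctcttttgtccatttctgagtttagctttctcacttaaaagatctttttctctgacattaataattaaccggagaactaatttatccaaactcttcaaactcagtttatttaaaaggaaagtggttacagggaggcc
The match began 17 bases before the start in F11, 24 bases before it in F9 and 80 bases before it in Fgb. RefSeq gave 29 windows for 27 of the measured members. Such letters were found in 6 of these 29 windows (C1s1, C9, F11, F9, Fga and Fgb), and in 9.56% of all 32851 windows. The matched genes thus include some that were lower with fructose and some that were level. The Pros1 window had 64.4% G and C and the Hc window 31.2%, and neither held a match. The E-box letters CACGTG, a core of ChREBP binding elements, occurred in 0 of the 29 windows of these members and in 6.02% of all windows. The ATF core TGACGT (0 of 29, against 6.47%) and the ER stress element (0 of 29, against 0.113%) were searched in the same way. A match or its absence describes only the letters in these windows, and none of the letter sets overlapped another in the windows shown.

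Expression is given as log2 values per gene, and a difference of 1 is 2-fold. A background level of 4.76 was set from 1105 olfactory receptor genes, which hepatocytes are taken not to express. Of the 36 measured members, 35 lay above it on all 4 arrays. C1s1, a protease of the C1 complex, lay below it on all 4 as the mean of its 2 probe sets, with 4.57 in WT control and 4.64 in KO control, and is left out of the counts. Alone, 1 of its probe sets read 4.77 in KO control, at the background level. Mlxipl had log2 levels of 8.08 (control) and 8.43 (fructose) in WT, and of 7.42 and 7.37 in KO, lower on both KO arrays but well above background. The arrays therefore do not show its loss, and the probe set may lie outside the deleted part, so KO below means the samples labelled so. The samples carried hepatocyte markers: Alb (albumin) had log2 levels of 12.6, 12.6, 12.6 and 12.7 on the arrays taken in that order, and 8 of 9 measured hepatocyte markers were above background on all arrays, the exception being Ass1.

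**Figure D1:**
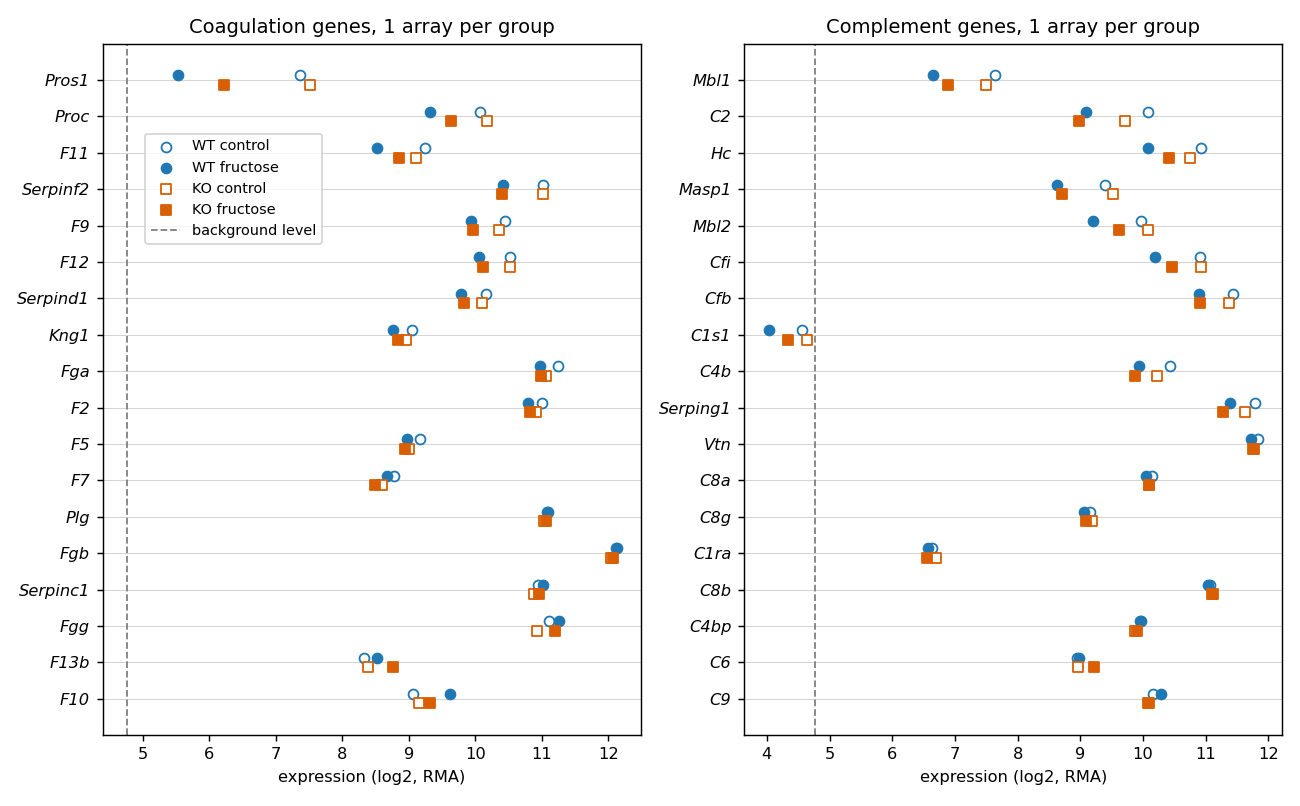
Expression (log2) of the 18 measured coagulation genes and 18 measured complement genes on the 4 arrays; circles are WT, squares are KO, open symbols control and filled symbols fructose, and the dashed line is the background level of 4.76. Genes are ordered by the fructose difference in WT, from Pros1 and Mbl1 at the top, where the filled symbols lie left of the open ones, to F10 and C9 at the bottom.

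With fructose, a subset of both families was lower in WT hepatocytes, and few members were higher. Of the 35 detected members, 26 had a difference below 0, against 52.5% of all 10814 detected genes. They were 12 of 18 coagulation genes and 14 of 17 complement genes. At least 1.5-fold lower were 10 members, 28.6% of them, against 10.8% of all detected genes, and 0 were at least 1.5-fold higher, against 9.46%. By family, the lower ones were 4 of 18 coagulation genes (22.2%) and 6 of 17 complement genes (35.3%). At the 2-fold threshold the picture differed, since only Pros1 was lower, 1 of 35, against 3.01% of all detected genes, and 0 members were 2-fold higher, against 3.1%. The median log2 difference was -0.24 over 18 coagulation genes, -0.40 over 17 complement genes and -0.03 over all detected genes. Without Mbl1, the complement median was -0.25.

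The vitamin K dependent proteins, which need gamma-carboxylation of glutamate residues to bind membranes, spanned the whole range of the coagulation family. Pros1, which encodes protein S, the cofactor of activated protein C, had log2 levels of 7.36 (control) and 5.53 (fructose) in WT, and of 7.51 and 6.21 in KO. Both fructose arrays lay below both control arrays, and the WT fructose array was the lowest. Protein S mRNA was thus 3.57-fold lower with fructose in WT and 2.45-fold lower in KO, the largest difference of any member in each genotype. Its WT fructose level of 5.53 was also the lowest of any detected member, and so the nearest to the background level of 4.76. Proc, the gene of the anticoagulant protease protein C, had levels of 10.06 and 9.32 in WT control and fructose and of 10.17 and 9.64 in KO. It was 1.68-fold lower with fructose in WT and 1.45-fold lower in KO. Pros1 and Proc were therefore both lower on the fructose arrays of each genotype. Outside the members, other genes of the protein C system did not follow them. Procr, the protein C receptor gene, differed by 0.73 in WT and 0.35 in KO, and Thbd (thrombomodulin) by 0.47 and -0.03.

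The procoagulant members of the same class differed less. F9 (factor IX) had levels of 10.44 and 9.94 in WT control and fructose and of 10.36 and 9.96 in KO, a log2 difference of -0.51 in WT and -0.39 in KO. F2, which encodes prothrombin, differed by -0.22 in WT and -0.10 in KO, and F7 (factor VII) by -0.11 and -0.10. F10, the gene of factor X, where the intrinsic and extrinsic routes meet, went the other way. Its levels were 9.06 (control) and 9.62 (fructose) in WT, and 9.14 and 9.31 in KO, so the WT fructose array was the highest. This was the largest positive difference among the members in WT, 1.48-fold, and it was 1.12-fold in KO. F7 and F10 are adjacent genes in the RefSeq order, yet their differences in WT were -0.11 and 0.56.

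Of the contact and intrinsic factors, F9 apart, 3 of 3 had a difference below 0 in WT, against 52.5% of all detected genes. Only F11 was at least 1.5-fold lower, 1 of 3, against 10.8% of all detected genes. F11 (factor XI) had levels of 9.24 (control) and 8.51 (fructose) in WT, and of 9.11 and 8.85 in KO, and was 1.65-fold lower with fructose in WT and 1.19-fold lower in KO. F12 (factor XII), which starts the contact pathway, differed by -0.48 in WT and -0.40 in KO. Kng1, the gene of the bradykinin precursor kininogen, differed by -0.29 in WT and -0.11 in KO. The probe set that lists Klkb1 (plasma prekallikrein) together with Cyp4v3 was higher with fructose, by 0.38 in WT and 0.66 in KO, and cannot be assigned to either gene.

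The genes of the clot itself and of factor V differed with fructose by -0.26 to 0.19 in WT and by -0.07 to 0.38 in KO. Fgb, the fibrinogen beta chain, had levels of 12.11 (control) and 12.13 (fructose) in WT, and of 12.04 and 12.07 in KO, so that no array stood apart. Fga (alpha chain) differed with fructose by -0.26 in WT and -0.07 in KO, and Fgg (gamma chain) by 0.16 and 0.27. The 3 chains are neighbouring genes whose products are assembled in equal number, and their differences in WT ranged from -0.26 to 0.16. F5, the thrombin-generating cofactor V, differed by -0.21 in WT and -0.07 in KO. F13b, the carrier subunit of the fibrin-crosslinking factor XIII, was higher, by 0.19 in WT and 0.38 in KO.

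Among inhibitors and fibrinolytic proteins, Serpinf2 (alpha-2-antiplasmin, the main inhibitor of plasmin) had levels of 11.01 and 10.41 in WT control and fructose and of 11.01 and 10.40 in KO. It was 1.52-fold lower with fructose in WT and 1.53-fold lower in KO, nearly the same in both genotypes. Serpind1 (heparin cofactor II) differed by -0.37 in WT and -0.27 in KO. Serpinc1 (antithrombin) differed by 0.07 and 0.08, and Plg (plasminogen) by 0.01 and 0.03. Antithrombin and plasminogen mRNA thus stayed within 0.1 log2 units of control, as did Fgb, in both genotypes.

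In complement, all 3 measured lectin pathway members (Mbl1, Mbl2 and Masp1) were at least 1.5-fold lower with fructose in WT, against 10.8% of all detected genes. So were 1 of 4 genes of the classical and alternative pathways, 1 of 6 terminal components and 1 of 4 regulators. The grouping by role was not part of the plan, which split the members only into coagulation and complement. Mbl1, a mannose-binding lectin, had levels of 7.64 (control) and 6.65 (fructose) in WT, and of 7.50 and 6.89 in KO, and was 1.99-fold lower in WT and 1.53-fold lower in KO. Mbl2, its paralogue, had levels of 9.97 and 9.20 in WT control and fructose and of 10.07 and 9.62 in KO, 1.70-fold lower in WT and 1.37-fold in KO. Masp1, the protease that travels with these lectins, had levels of 9.39 and 8.62 in WT and of 9.52 and 8.70 in KO, 1.70-fold lower in WT and 1.76-fold in KO. For each of these genes both fructose arrays lay below both control arrays. The probe set that lists Masp2 together with Tardbp differed by -0.23 in WT and -0.16 in KO. Fcna, a lectin pathway gene outside the members, was detected on all 4 arrays and was not lowered in this way. It differed with fructose by 0.16 in WT and -0.04 in KO.

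C2 and Cfb encode the homologous proteases of the classical and alternative C3 convertases and lie next to each other in the genome. C2 had levels of 10.08 (control) and 9.09 (fructose) in WT, and of 9.71 and 8.98 in KO, and was 1.99-fold lower with fructose in WT and 1.67-fold lower in KO. Cfb had levels of 11.43 and 10.89 in WT control and fructose and of 11.37 and 10.92 in KO, a difference of -0.55 in WT and -0.45 in KO. C4b, the gene of C4, differed by -0.49 and -0.35. Its value is uncertain because C4a is a near-identical copy whose RNA the same probes may read, although the C4a probe set lay below background on all arrays. C1ra, a protease of C1, differed by -0.06 in WT and -0.15 in KO. Mbl1 and C2 lay just inside the 2-fold threshold in WT, and with each array centred on its median 2 complement genes passed it, while after a repeated quantile normalization 1 did.

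The terminal components were split. Hc encodes C5, the source of the C5a anaphylatoxin and the first component of the membrane attack complex. Its levels were 10.92 (control) and 10.08 (fructose) in WT, and 10.75 and 10.41 in KO, 1.78-fold lower with fructose in WT and 1.26-fold lower in KO. Both fructose arrays were below both control arrays. The other terminal genes were near level in WT: C6 differed by 0.03, C8a by -0.10, C8b by -0.02, C8g by -0.08 and C9 by 0.14. In KO their differences ranged from -0.09 for C8g to 0.26 for C6. C5 was thus the 1 terminal gene of 6 past 1.5-fold in WT.

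Complement regulators also varied. Cfi (factor I), which cleaves C3b and C4b, had levels of 10.91 (control) and 10.19 (fructose) in WT, and of 10.92 and 10.46 in KO, 1.66-fold lower with fructose in WT and 1.38-fold in KO. Its cofactor C4bp was level, with differences of 0.01 and 0.03. Serping1, the C1 inhibitor, which also blocks kallikrein and factor XIIa, had levels of 11.79 and 11.39 in WT and of 11.62 and 11.27 in KO, a difference of -0.40 in WT and -0.35 in KO. Vtn (vitronectin), which binds and blocks the terminal complex, differed by -0.11 in WT and 0.03 in KO.

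In KO hepatocytes the direction of the fructose differences was mostly the same, and their size smaller. Of the 35 detected members, 23 were below 0, against 50.6% of all 10752 detected genes. At least 1.5-fold lower were 5 members (Pros1, Serpinf2, C2, Masp1 and Mbl1), 14.3% of them, against 5.75% of all detected genes, and 0 were at least 1.5-fold higher, against 6.11%. By family, the lower ones were 2 of 18 coagulation genes (11.1%) and 3 of 17 complement genes (17.6%). At 2-fold, Pros1 alone was lower, against 1.18% of all detected genes, and 0 members were higher, against 1.68%. The median difference was -0.10 for coagulation genes and -0.34 for complement genes, and it was -0.00 over all detected genes. All 5 genes past 1.5-fold in KO were also past it in WT, where Proc, F11, Hc, Cfi and Mbl2 joined them. These comparisons use separate arrays.

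**Figure D2:**
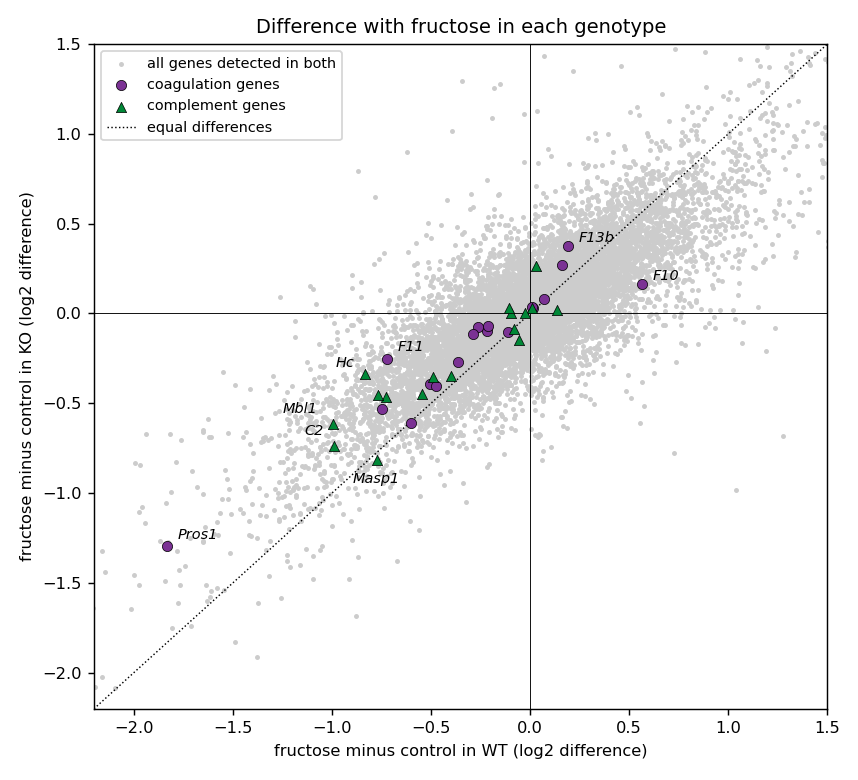
Log2 difference between fructose and control in WT (horizontal axis) and in KO (vertical axis) for coagulation genes (circles), complement genes (triangles) and all genes detected in both genotypes (grey; those beyond the axes are not drawn). Most of the lower members lie above the dotted line of equal differences, as Hc does with -0.84 in WT and -0.34 in KO, while Masp1 lies just under it.

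Set side by side, 23 of 35 members were lower with fructose in both genotypes, against 40.8% of the 10516 genes detected in both. A further 9 were higher in both, against 37.6%, and 3 had opposite signs, against 21.6%: C8a, C8b and Vtn, whose differences lay between -0.11 and 0.03. Of the 26 members lower in WT, 22 had a smaller difference or a positive one in KO, and so did 77% of all detected genes lower in WT. The fructose difference in KO minus that in WT was above 0 for 29 of 35 members and below 0 for 6, against 45% of all 11050 detected genes below 0. Its median was 0.11 for coagulation genes and 0.10 for complement genes, beside 0.03 for all detected genes. The largest such differences were 0.54 for Pros1, 0.50 for Hc and 0.47 for F11, with -0.40 for F10 in the other direction. No member reached 1.5-fold in this quantity in either direction, against 2.86% of all detected genes above and 2.6% below. At 2-fold the shares of all genes were 0.443% above and 0.588% below.

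The 7 members within 0.1 log2 units of control in both genotypes were Fgb, Serpinc1, Plg, C4bp, C8a, C8b and C8g, 3 of coagulation and 4 of complement. Of all genes detected in both genotypes, 9.43% lay within these limits. They include the main clotting inhibitor, the precursor of plasmin and all 3 chains of C8, a terminal component. C8a and C8b are adjacent genes, with differences in WT of -0.10 and -0.02.

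Without fructose, few genes of any kind differed by 1.5-fold between the genotypes, and no member did. Of the 35 detected members, 0 were at least 1.5-fold lower or higher in KO, against 1.1% and 0.476% of all 10720 detected genes. At the 2-fold threshold the shares of all genes were 0.196% and 0.0373%, and 0 members passed it. In 33 members the difference was under 0.2 log2 units, C2 and C4b being the others, at -0.37 and -0.20, and 74.8% of all detected genes lay within the same limit. The median difference was -0.07 for each family, and -0.01 over all detected genes, with 23 of 35 members below 0 against 52% of all genes.

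In fructose medium, the share of members that differed between the genotypes was near that of all genes. Pros1 was 1.60-fold higher in KO (log2 difference 0.68), the 1 member of 35 at least 1.5-fold higher, against 2.45% of all 10688 detected genes. At least 1.5-fold lower were 0 members, against 2.86%. At 2-fold 0 members were higher or lower, against 0.543% and 0.739%. Under the threshold, Mbl2 was 1.34-fold, F11 1.27-fold, Hc 1.26-fold and Proc 1.25-fold higher in KO, and F10 was 1.24-fold lower. The median difference was 0.02 for coagulation genes and 0.05 for complement genes, beside 0.01 for all detected genes, with 14 of 35 members below 0 against 47.5% of all genes. Each of these comparisons shares arrays with the fructose differences above, so the values of Pros1, F11 and Hc there and here are not independent.

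**Figure D3:**
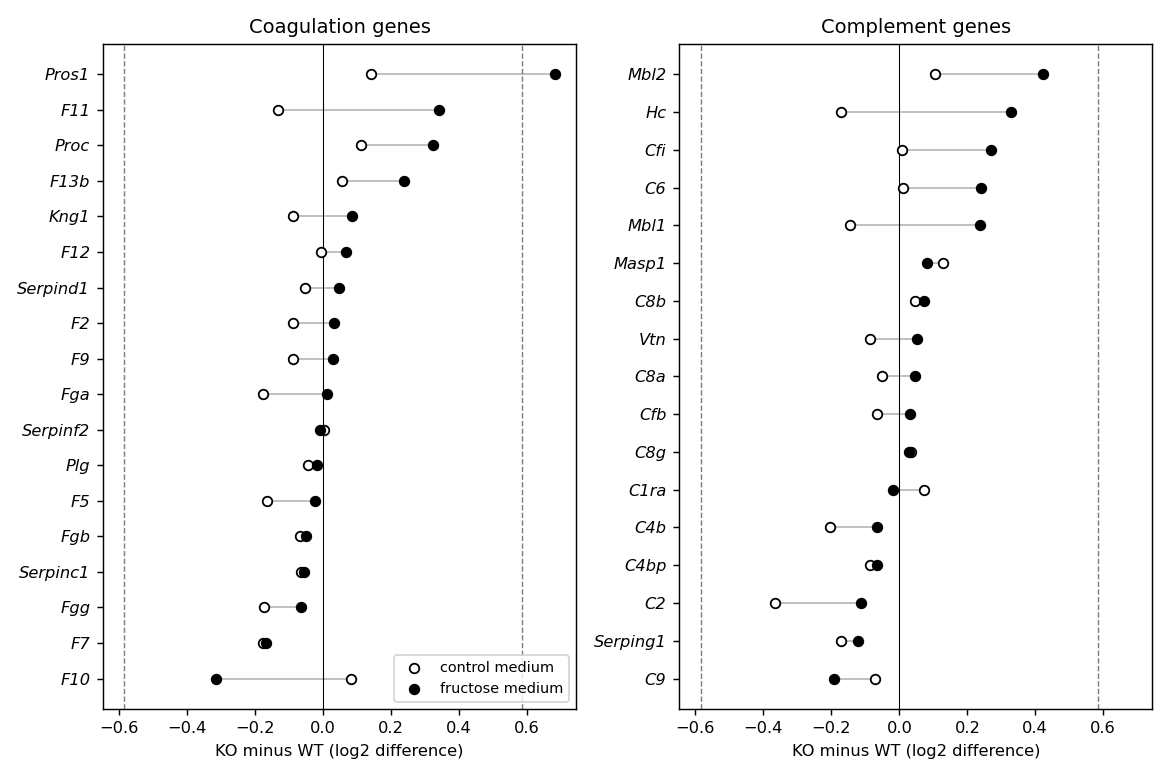
Log2 difference between KO and WT for each detected coagulation and complement gene in control medium (open circles) and fructose medium (filled circles); dashed lines mark 1.5-fold. In control medium all points lie between the dashed lines, and in fructose medium Pros1, at 0.68, is the only point beyond them.

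Genes of the same pathways outside the members moved in several directions with fructose. Of 22 other coagulation genes measured, 17 were detected in WT, where 3 were at least 1.5-fold higher and 2 lower, against 9.46% and 10.8% of all detected genes. Plat, tissue plasminogen activator, had levels of 5.90 (control) and 7.20 (fructose) in WT, and of 5.94 and 6.56 in KO, 2.47-fold higher with fructose in WT and 1.54-fold in KO. Tfpi2, a Kunitz-type protease inhibitor, was 2.13-fold higher in WT and 1.42-fold in KO, and Procr, the endothelial protein C receptor gene, 1.66-fold and 1.27-fold. Kng2, the second kininogen gene, was 1.74-fold lower in WT and 1.78-fold lower in KO, and Fgl1, a fibrinogen-like secreted protein, 1.60-fold and 1.70-fold lower. Kng1 and Kng2 are similar in sequence, so that probes of one may read the other, and both values are uncertain.

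F3 and Plaur differed in direction between genotypes. F3, tissue factor, the cell-surface starter of clotting, had levels of 9.16 (control) and 8.79 (fructose) in WT, and of 9.38 and 9.86 in KO. It was 1.29-fold lower with fructose in WT and 1.40-fold higher in KO, which left it 2.10-fold higher in KO in fructose medium. Plaur, the urokinase receptor gene, had levels of 8.79 and 8.61 in WT and of 8.89 and 9.43 in KO, and was 1.77-fold higher in KO in fructose medium. On both genes the KO fructose array was the highest.

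Of 28 other complement genes measured, 16 were detected in WT, with 5 at least 1.5-fold lower and 0 higher with fructose, against 10.8% and 9.46% of all detected genes. Cd59a, a membrane inhibitor of the terminal complex, was 1.76-fold lower in WT and 1.43-fold in KO, and C1rl, a C1r-like protease gene, 1.70-fold and 1.51-fold. Both chains of carboxypeptidase N, which trims anaphylatoxins and kinins, were lower in WT: Cpn1 by 1.52-fold and Cpn2 by 1.61-fold. In KO, Cpn1 was 1.37-fold lower and Cpn2 1.05-fold lower, so that Cpn2 was 1.64-fold higher in KO than in WT in fructose medium. C1qb, a C1q chain made largely by macrophages, had levels of 7.65 (control) and 6.97 (fructose) in WT, and of 6.70 and 6.25 in KO, 1.94-fold lower in KO in control medium. C1qa was 1.61-fold lower in KO in fructose medium, as was Cfp (properdin), and the leukocyte integrin gene Itgb2 was 1.51-fold lower there. Itgam, its CR3 partner, was at least 1.31-fold lower there, the KO array being below background.

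These last genes are myeloid, and macrophage markers moved with the genotype too. Of 10 macrophage markers, 8 were detected in the control medium comparison, 7 of them lower in KO, with a median of -0.48, and the median in fructose medium was -0.45 over 9. Sinusoidal endothelial markers had medians of -0.47 and -0.37 over 8 of 10. Among the macrophage markers, Fcgr1, Timd4, Marco and Cd5l were between 1.61-fold and 2.38-fold lower in KO in control medium. They were the most lowered of that list. Cd68 was higher in KO, by 0.08 in control and 0.44 in fructose medium. Lyz2 differed by -0.26 and 0.29 in the same comparisons, and Csf1r by -0.05 and -0.07. The summed linear level of the macrophage list was 2674 (control) and 2358 (fructose) in WT, and 2600 and 2778 in KO. Cd68 made up most of it, with log2 levels between 10.8 and 11.2, and without Cd68 the sum was 564 and 590 in WT and 369 and 388 in KO. That of the endothelial list was 1017, 908, 724 and 677. The macrophage marker Cd163 and the endothelial markers Stab2 and Clec4g were below background on all 4 arrays. In bulk RNA, fewer cells of a type and less RNA per cell cannot be told apart, and the part of these cells in the C1q, properdin and integrin values was not tested. With fructose the macrophage median was 0.21 in WT and 0.12 in KO, and the endothelial median -0.13 and -0.10. Stellate, cholangiocyte and platelet markers were mostly below background: 6 of 10, 4 of 5 and 3 of 4 measured markers on all arrays, and Sox9 was the cholangiocyte marker above it. The summed level of the stellate list ranged from 260 to 281 over the arrays, that of the cholangiocyte list from 727 to 1312, and that of the platelet list from 77.2 to 82.2. Sox9 made up most of the cholangiocyte sum, with log2 levels between 9.39 and 10.30. The hepatocyte list summed to 17678 (control) and 18724 (fructose) in WT, and 17818 and 19825 in KO, with a median fructose difference of 0.01 in WT and 0.08 in KO. Its members differed in direction: Cps1 was 2.65-fold and Fabp1 2.45-fold higher with fructose in WT, and 2.63-fold and 2.58-fold in KO, while Hnf4a was lower in both.

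Of 9 genes that process and export clotting proteins, 8 were detected, and 5 of these were at least 1.5-fold higher with fructose in WT, against 9.46% of all detected genes. In KO, 0 were, against 6.11%. Lman1 and Mcfd2 form the cargo receptor that carries factors V and VIII out of the endoplasmic reticulum. Lman1 had levels of 9.34 (control) and 10.33 (fructose) in WT, and of 9.51 and 9.99 in KO, 1.98-fold higher with fructose in WT and 1.40-fold in KO. Mcfd2 was 1.86-fold higher in WT and 1.30-fold in KO. Their cargo gene F5 was slightly lower on both fructose arrays, as given above.

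Furin, a proprotein convertase, had levels of 10.27 (control) and 11.46 (fructose) in WT, and of 10.19 and 9.98 in KO, so that WT fructose stood above the other arrays. It was 2.28-fold higher with fructose in WT and 1.16-fold lower in KO, and 2.78-fold lower in KO than in WT in fructose medium. Vkorc1l1, a paralogue of the vitamin K epoxide reductase, was 1.80-fold higher in WT and 1.10-fold in KO, and Tpst1, a tyrosine sulfotransferase, 1.51-fold and 1.43-fold. Vkorc1, the reductase itself, differed by 0.19 in WT and 0.13 in KO. Ggcx, the carboxylase of the vitamin K dependent proteins, differed by -0.25 and -0.27, and Tpst2 by -0.35 and 0.01.

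Of 12 measured regulators of liver secreted-protein genes, 1 was at least 1.5-fold higher and 2 lower with fructose in WT, near the shares of all detected genes, 9.46% and 10.8%. Hnf4a, a nuclear receptor that many clotting genes depend on, had levels of 9.44 and 8.69 in WT control and fructose and of 9.43 and 8.93 in KO, 1.68-fold lower in WT and 1.42-fold in KO. Nr1h4 (FXR, the bile acid receptor) was 1.62-fold lower in WT and 1.41-fold in KO. Nr0b2, an orphan nuclear receptor, was 1.43-fold lower with fructose in WT. In KO it was at least 1.30-fold lower, the fructose array there being below background. Cebpb, an acute phase factor of the C/EBP family, was higher by a log2 difference of 0.76 in WT and 0.59 in KO, while Cebpa levels lay between 7.19 and 7.38 on the 4 arrays.

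**Figure D4:**
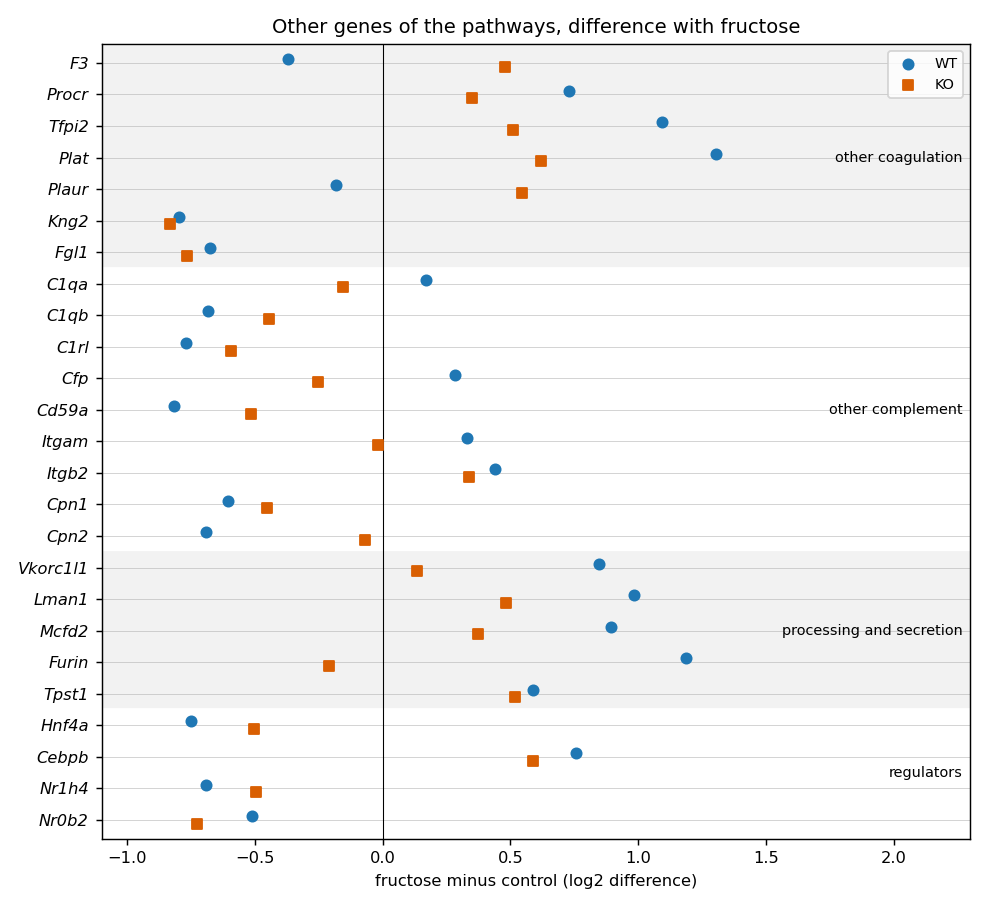
Log2 difference between fructose and control in WT (circles) and KO (squares) for the 25 genes of the 4 lists of other pathway genes that differed by at least 1.5-fold between arrays in any pairwise comparison, marker lists left out. Itgam and Nr0b2 reach that only through an array below background. Furin, F3, Plaur, C1qa, Cfp and Itgam lie on opposite sides of 0 in the 2 genotypes, Itgam by only -0.02 in KO. Kng2, Fgl1, Hnf4a and Nr1h4 are among those below 0 in both.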

How the data were processed

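Biotin-labelled cDNA from 400 ng of total RNA per sample was hybridised to 1-colour whole-transcript arrays, 4 in all, per the labels. The authors deposited log2 expression values, 1 for each probe set and array. RMA and R 3.4.0 are named in the submitters' processing notes. RMA subtracts background, makes array distributions alike and summarises probes, so a shift shared by all genes cannot be seen. For the array's annotation and genome build, the version is not given in the sources used here.

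Of 41345 probe sets, 23521 list 1 gene (23328 matched to RefSeq by Entrez number, for names), 1814 list several and 16010 are unnamed here. Probe sets of a gene were averaged in log2 (among the members, C1s1 alone had more than 1). Between 10368 and 10447 genes per array lay above background, the 95th percentile of olfactory receptor genes. A gene was detected in a comparison when above it on at least 1 of its arrays, and folds against an array below it are bounds. Differences were taken for 5 comparisons and counted at 1.5-fold and 2-fold, with Python 3.11.15, pandas 2.3.3 and statsmodels 0.14.6. The counting was tested on simulated data.

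The members and lists were chosen with earlier results of these data known. Named genes are Mlxipl, all measured members, and detected genes of the 4 other pathway lists, not of the marker lists, with at least 1.5-fold in any pairwise comparison; a few more are named for a list's account and were chosen after their values were seen. Precision is limited by the number of arrays, 1 per group. The alternatives were centring on array medians, repeated quantile normalization, subtraction of a loess curve (span 0.3), no filter, background raised by 1 log2 unit, the brightest probe set, values raised to background, the mean, lists without their most different member, and, added after seeing the data, lists with Klkb1 or Masp2.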

Additional observations from a re-analysis of the deposited data

Results flagged for a closer look

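The genes below are members, or genes of the other pathway lists past 1.5-fold in a pairwise comparison. They had log2 differences of opposite sign, each over 0.1 in size, in both settings of the same contrast. Genes outside this choice were left out, among them Tpst2 and Lyz2, whose differences between KO and WT met the same limit. With 1 array per group these differences were not tested. Between KO and WT, F11 differed by -0.13 in control and 0.34 in fructose medium, Hc by -0.17 and 0.33, and Mbl1 by -0.14 and 0.24. Outside the members, Procr differed by 0.15 and -0.23, Tfpi2 by 0.12 and -0.46, and Lman1 by 0.17 and -0.34 in the same comparisons. With fructose, Furin differed by 1.19 in WT and -0.21 in KO, F3 by -0.37 and 0.48, and Plaur by -0.18 and 0.54. The myeloid genes C1qa (0.17 in WT and -0.15 in KO) and Cfp (0.28 and -0.25) also had opposite signs with fructose.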

How the results depend on the processing

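A value counts as moved when it shifts by over 0.1 log2 units, or a count by over 1.5 times. The log2 difference of each of the 35 detected members stayed within 0.1 of its value under all 7 settings of scaling, filter and probe set, in all 5 comparisons. The complement median with fructose in WT moved from -0.40 to -0.25 without Mbl1. The count of complement genes at least 2-fold lower with fructose in WT was 0, and 2 with median centring or 1 with repeated quantile normalization. At 1.5-fold in place of 2-fold, it was 6, the coagulation count was 4, the KO counts with fructose were 2 (coagulation) and 3 (complement), and 1 coagulation gene was higher in KO in fructose medium. Outside the members, values raised to the background moved differences of Itgam and Nr0b2, which are given as bounds. A loess curve of difference on level was between -0.08 and -0.01 at the members' levels in WT. No paired analysis was possible because each group has 1 array and the labels give no replicate numbers. For the same reason no array could be left out.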
